A study of Homo sapiens with 148 samples.

Results

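Genes for 10 proteins that the liver and the yolk sac secrete into the blood were described across the stages of pancreatic differentiation of H9 cells, an established human embryonic stem cell line. They were TTR, TF, APOA1, APOA2, APOB, AFP, ALB, FGB, FGG and SERPINA1, and they were chosen by name from the 49085 gene names of the mean expression table. All 10 were found, each under a single entry. H9 hESCs, wild type in genotype, were sampled undifferentiated and after differentiation as spheroids to definitive endoderm (DE, day 4), primitive gut tube (PGT, day 7), pancreatic progenitors (PP, day 14) and, at day 35, islet-like organoids that hold β cells (SC-β organoids). A further stage, labelled PH, belongs to the same pancreatic differentiation but is defined neither in the labels nor in the methods, and it was kept apart from the order of the other stages. Every differentiated stage derives from this 1 line. Of the 148 samples in the series, 12 are RNA-seq samples, 2 per stage. Each value below is the authors' mean over the replicates of a stage, in TPM, a measure of transcript abundance that corrects for transcript length and scales each library to the same total. The spread between replicates is not part of these means, so no difference below carries an error or a p-value.

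Hepatocytes, the endoderm of the yolk sac and, for some of these genes, the gut epithelium make much of the protein of fetal and adult plasma. The genes are read by a shared set of endodermal transcription factors, among them the HNF4, FOXA and C/EBP families, and AFP precedes ALB in the developing liver. Several of the genes are also used outside the liver. TTR is abundant in islet endocrine cells and in the choroid plexus, TF in oligodendrocytes, and SERPINA1 in islet, exocrine and myeloid cells.

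The summed level of the 10 genes went from 5.12 TPM in hESCs to 120.4 TPM at the DE stage and 1711 TPM at PGT, then stood at 203 TPM for PP, 1514 TPM for SC-β organoids and 49.0 TPM for PH. It was thus high in PGT and SC-β organoids, with a trough at PP between them. The genes took 0.171% of the TPM total in PGT and 0.151% in SC-β organoids, against 0.000512% in hESCs. The make-up of that sum differed between the stages. APOA2 and APOA1 gave 59.7% and 28.0% of it in DE. TTR gave 55.1% in PGT and 81.2% in SC-β organoids. Without TTR the sum was 768 TPM in PGT and 285 TPM in SC-β organoids. In hESCs, 1 of the 10 genes (AFP) reached 1 TPM and 3 were listed at 0, whereas 9 reached 1 TPM in PGT and all 10 did in SC-β organoids. For comparison, 40.1% of all names reached 1 TPM in PGT and 50.1% in SC-β organoids. Because RNA was measured in bulk, fewer cells that express a gene and less RNA per cell cannot be told apart.

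**Figure D1:**
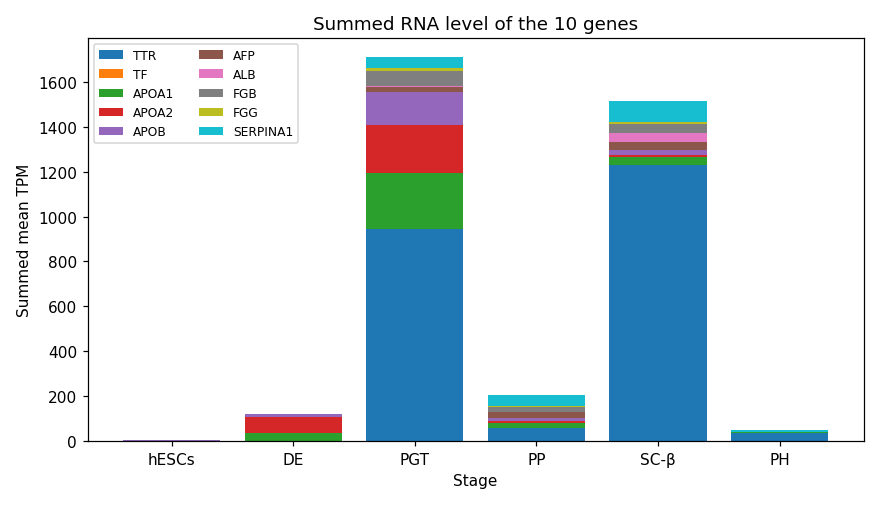
Summed mean TPM of the 10 genes (vertical axis, linear from 0) at each stage (horizontal axis), with each gene as 1 colour of the stack. The bars for PGT (1711 TPM) and SC-β organoids (1514 TPM) stand above PP (203 TPM), and TTR takes 55.1% and 81.2% of them.

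The apolipoproteins were the genes of the group that reached 10 TPM in DE. APOA1 and APOA2 encode the main proteins of high-density lipoprotein, and APOB the structural protein of chylomicrons and low-density lipoprotein. APOA1 (ENSG00000118137.10, chromosome 11, 116835751 to 116837622, reverse strand) was at 0.536 TPM in hESCs, at 33.7 for DE and 252 for PGT, then at 23.2 for PP, 36.0 in SC-β organoids and 1.35 in PH. APOA2 (ENSG00000158874.11, chromosome 1, 161222292 to 161223631, reverse strand) was at 0.977 TPM in hESCs, at 72.0 for DE and 212 for PGT, then at 10.1 for PP and 8.76 in SC-β organoids, and it was listed at 0 in PH. APOB (ENSG00000084674.15, chromosome 2, 21001429 to 21044073, reverse strand) was at 0.243 TPM in hESCs, at 13.7 for DE and 147 for PGT, then at 12.1 for PP, 22.9 in SC-β organoids and 0.230 in PH. All 3 thus had their highest level in PGT and were low in hESCs and PH. APOA2 was the most abundant of them in DE, and APOA1 was the most abundant from PGT on, so that the ratio of APOA1 to APOA2 went from 0.469 in DE to 1.19 at PGT, 2.30 at PP and 4.12 for the organoids. The ratio of APOA1 to APOB varied less, from 1.57 in SC-β organoids to 2.47 in DE. A lncRNA antisense to APOA1, APOA1-AS, overlaps it on the opposite strand and did not exceed 2.92 TPM. Whether reads were assigned by strand in the authors' quantification is not given in the sources used here.

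TTR, SERPINA1 and both fibrinogen chains appeared later than the apolipoproteins. TTR encodes transthyretin, the carrier of thyroxine and of retinol-binding protein. TTR (ENSG00000118271.12, chromosome 18, 31557009 to 31598833, forward strand) had a value of 0 for hESCs, 0.306 TPM for DE, 943 for PGT, 55.8 for PP, 1229 in SC-β organoids and 35.9 in PH. Its level was therefore high at 2 stages that are not consecutive. Among all names it ranked 72 at PGT, 1624 at PP and 47 at the organoid stage. SERPINA1 encodes α1-antitrypsin, the plasma inhibitor of neutrophil elastase. SERPINA1 (ENSG00000197249.14, chromosome 14, 94376747 to 94390693, reverse strand) was at 0.0186 TPM in hESCs, was listed at 0 in DE, and was at 49.7 TPM in PGT, 46.1 in PP, 92.1 in SC-β organoids and 8.45 in PH. It had no trough at PP, where it differed from PGT by less than 2-fold, and it gave 22.7% of the summed level of the 10 genes at that stage.

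FGB and FGG encode the β and γ chains of fibrinogen, which assemble with the α chain, encoded by FGA, into the precursor of fibrin. FGB (ENSG00000171564.12, chromosome 4, 154563011 to 154572807, forward strand) had values of 0 for hESCs and DE, then was at 67.1 TPM in PGT, 22.8 in PP, 39.9 in SC-β organoids and 0.704 in PH. FGG (ENSG00000171557.17, chromosome 4, 154604134 to 154612967, reverse strand) was also listed at 0 in hESCs and DE and was at 14.4 TPM in PGT, 4.58 in PP, 9.51 in SC-β organoids and 0.0930 in PH. The chains kept a similar proportion to each other, with FGB at 4.64, 4.97 and 4.19 times the level of FGG at PGT, PP and the organoid stage. FGA lies between them, 10318 bases from FGB and 13391 bases from FGG. It departed from that proportion, at 1.26 times FGB in PGT and 0.264 times FGB both at PP and for the organoids, and it was already at 3.99 TPM in DE.

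Serum albumin and α-fetoprotein belong to 1 gene family and lie 9655 bases apart on the forward strand of chromosome 4. ALB, which encodes the main carrier protein of adult plasma, was at 0.0370 TPM in hESCs, at 0.364 for DE and 2.99 for PGT, then at 0.649 for PP, 39.3 in SC-β organoids and 0.274 in PH (ENSG00000163631.18, 73397114 to 73421482). AFP, its fetal counterpart, was at 3.20 TPM in hESCs, at 0.178 for DE and 22.2 for PGT, then at 27.1 for PP, 34.3 in SC-β organoids and 1.23 in PH (ENSG00000081051.8, 73431138 to 73456174). ALB thus reached 10 TPM in SC-β organoids and at no other stage, whereas AFP was between 22.2 and 34.3 TPM from PGT to SC-β organoids. AFP was 7.42 times ALB in PGT and 0.872 times ALB in SC-β organoids. AFP was also the 1 gene of the 10 that was lower in DE than in hESCs by at least 2-fold.

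TF encodes transferrin, the iron carrier of plasma. TF (ENSG00000091513.16, chromosome 3, 133746040 to 133796641, forward strand) stood at 0.112 TPM in hESCs, at 0.237 for DE and 0.440 for PGT, then at 0.395 for PP, 2.2 in SC-β organoids and 0.810 in PH. It reached 1 TPM in SC-β organoids alone among these stages and was the lowest of the 10 genes there. SRPRB, a gene for a subunit of the signal recognition particle receptor, overlaps TF on the same strand and was at 13.3 to 24.5 TPM, and the part of shared reads in the TF values was not tested.

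**Figure D2:**
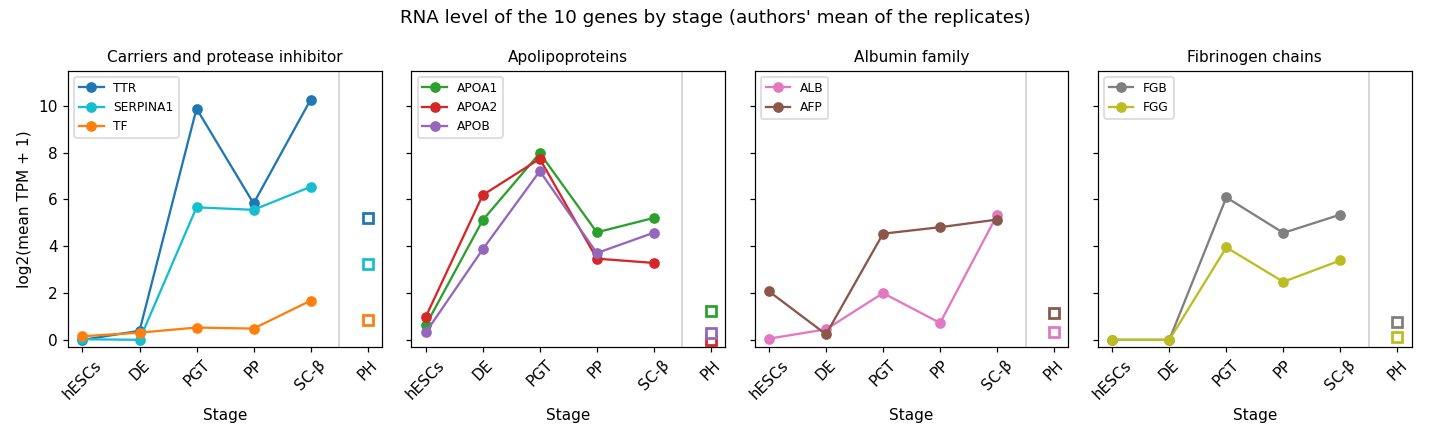
Level of each gene as log2(mean TPM + 1) (vertical axis) by stage (horizontal axis), in 4 panels by protein type; filled points joined by lines are the stages from hESCs to SC-β organoids and open squares set apart are PH. The apolipoproteins peak in PGT, TTR is high in PGT (943 TPM) and SC-β organoids (1229 TPM), ALB reaches 39.3 TPM in SC-β organoids, and TF stays at or below 2.2 TPM.

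The promoters of these genes were read for short motifs known from promoters of liver and endoderm genes, because several of the genes moved together. Windows of 250 bases before to 50 after the RefSeq transcription start (GRCh38.p14) were matched for 7 of the 10 genes, all but TTR, APOA1 and APOB. Motifs were searched on both strands. The letters GTTAAT, known from promoters of liver genes, were found in 3 of the 7 windows (AFP, ALB and FGB) and in 6.89% of all 27305 windows. Of the letters written for FOXA factors, TGTTTAC was found in 1 window (APOA2) and in 3.41% of all windows. The other spelling, TGTTTGC, was in 0 of the 7 windows and in 3.87% of all. Of the HNF4 site cores, CAAAGTC was in 0 of the 7 windows and in 3.43% of all. The same was true of CAAAGGT, which was in 3.42% of all windows. GATAAG, read by GATA factors, was found in 2 windows (ALB and APOA2) and in 6.36% of all windows, and the TATA box letters TATAAA in 1 window (AFP) and in 12%. No motif was found in the windows of FGG, SERPINA1 and TF. The printed part of the TF window would be 133661748 to 133661997, far upstream of the GENCODE gene, which starts at 133746040. It may therefore not hold the promoter of the TF transcripts counted here. The printed windows of ALB and AFP lie inside the GENCODE spans of these genes, which start upstream of them at 73397114 and 73431138. Only 1 window was read per gene, so other starts of a gene were not covered, and a window without a motif does not describe them. The windows that held a motif are printed below over the 250 bases before the start, in the direction of the gene, with motif letters in capitals. They show how near the start the GTTAAT letters lie in AFP (-132 to -127), ALB (-61 to -56) and FGB (-51 to -46, on the opposite strand), with the FOXA letters of APOA2 at -42 to -36 on the opposite strand. The GATA letters of APOA2 lie at 38 to 43, after the start, and are not printed.
AFP promoter, chr4:73435971-73436220, forward strand: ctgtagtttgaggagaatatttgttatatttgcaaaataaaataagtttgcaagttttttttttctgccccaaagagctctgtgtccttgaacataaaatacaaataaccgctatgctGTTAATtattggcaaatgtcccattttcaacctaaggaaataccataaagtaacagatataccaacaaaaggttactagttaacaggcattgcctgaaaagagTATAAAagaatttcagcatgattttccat
ALB promoter, chr4:73404037-73404286, forward strand: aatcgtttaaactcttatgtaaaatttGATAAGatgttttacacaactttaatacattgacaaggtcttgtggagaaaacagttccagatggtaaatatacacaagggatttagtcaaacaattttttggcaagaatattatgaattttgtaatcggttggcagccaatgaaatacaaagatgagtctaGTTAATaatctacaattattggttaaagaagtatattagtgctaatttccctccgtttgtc
FGB promoter, chr4:154562730-154562979, forward strand: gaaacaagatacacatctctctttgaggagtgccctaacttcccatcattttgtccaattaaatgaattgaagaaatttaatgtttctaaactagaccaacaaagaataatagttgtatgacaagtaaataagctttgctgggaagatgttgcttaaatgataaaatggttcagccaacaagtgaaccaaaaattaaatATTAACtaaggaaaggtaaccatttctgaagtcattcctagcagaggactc
APOA2 promoter, chr1:161223629-161223878, reverse strand: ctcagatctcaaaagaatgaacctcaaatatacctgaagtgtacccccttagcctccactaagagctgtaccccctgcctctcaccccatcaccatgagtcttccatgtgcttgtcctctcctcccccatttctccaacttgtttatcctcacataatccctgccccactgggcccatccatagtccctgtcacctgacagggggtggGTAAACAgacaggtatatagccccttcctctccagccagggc
A match describes letters in a window and is neither a bound site nor a cause of the levels.

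From hESCs to DE, the apolipoproteins were the genes of the group that rose. APOA1, APOA2 and APOB had log2 ratios of 4.5, 5.21 and 3.56 (on the log2(TPM + 1) scale, which understates changes of genes near 0), and AFP had one of -1.83. The other 6 genes stayed below 2-fold. Against 3 of 10 genes higher and 1 lower, 12.9% of all names were at least 2-fold higher and 2.55% at least 2-fold lower in DE. For names at 1 TPM or more in either stage, these shares were 28.2% and 5.55%. Of the names past 2-fold, 83.6% were higher in DE as deposited and 60.3% after the stages were rescaled by their median ratios. The ratios of APOA1, APOA2, APOB and AFP were then 4.20, 4.86, 3.31 and -2.08.

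From DE to PGT, 9 of the 10 genes were at least 2-fold higher and none was lower, whereas 2.3% of all names were higher and 4.92% lower. TTR had a log2 ratio of 9.50, AFP 4.3, APOB 3.34, APOA1 2.86, ALB 1.55 and APOA2 1.55. FGB, FGG and SERPINA1 were listed at 0 in DE and are counted as higher with no fold. TF had a log2 ratio of 0.22. The median log2 ratio of the 10 genes was 3.64, and that of all names was -0.03. Among the 22862 names at 1 TPM or more in either stage, 4.94% were at least 2-fold higher.

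From PGT to PP, 7 of the 10 genes were at least 2-fold lower and none was higher, whereas 3.25% of all names were lower and 2.74% higher. APOA2 had a log2 ratio of -4.27, TTR -4.05, APOB -3.50 and APOA1 -3.39, and FGB, FGG and ALB had ratios of -1.52, -1.47 and -1.28. AFP, SERPINA1 and TF had log2 ratios of 0.28, -0.11 and -0.05. The apolipoproteins and TTR thus differed more between these stages than the fibrinogen chains did. With 4-fold in place of 2-fold as the limit, those 4 genes remained past it.

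From PP to SC-β organoids, 3 of the 10 genes were at least 2-fold higher and none was lower, against 10.6% and 0.939% of all names. Among the names at 1 TPM or more in either stage, 20.7% were higher and 1.84% lower. ALB and TTR had log2 ratios of 4.61 and 4.44, and TF had one of 1.20. SERPINA1 lay just under 2-fold, with a log2 ratio of 0.98. The ratios of FGG, APOB, FGB, APOA1 and AFP were between 0.33 and 0.91, and that of APOA2 was -0.18. SC-β organoids were also set against PGT, a comparison added after the values were seen. TTR, AFP, SERPINA1, FGB and FGG differed by less than 2-fold between these stages, with log2 ratios of 0.38, 0.60, 0.88, -0.74 and -0.55. APOA2, APOA1 and APOB were lower in SC-β organoids, with log2 ratios of -4.45, -2.77 and -2.63, and ALB and TF were higher, with 3.33 and 1.15. Of all names, 10.8% were at least 2-fold higher and 2.51% lower in that comparison, and 20.7% and 4.83% of those at 1 TPM or more in either stage. The second high stage therefore resembled PGT in its TTR level and differed from it in apolipoproteins and ALB.

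PH was compared with PP. In PH, 7 of the 10 genes were at least 2-fold lower and none was higher, against 5.73% and 5.14% of all names. FGB had a log2 ratio of -3.80, AFP -3.66, APOB -3.41, APOA1 -3.36, FGG -2.35 and SERPINA1 -2.32, and APOA2 was listed at 0 in PH. TTR had a log2 ratio of -0.62 and remained at 35.9 TPM, 73.2% of the summed level of the 10 genes in PH. ALB and TF had ratios of -0.37 and 0.38. Of the names past 2-fold, 47.3% were higher in PH as deposited and 60.6% after median-ratio rescaling. Between SC-β organoids and PH, 9 of the genes were higher in SC-β organoids, TF being the exception, and none was lower, against 14.7% and 2.41% of all names. Of the names past 2-fold, 85.9% were higher in SC-β organoids as deposited and 65.7% after rescaling.

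**Figure D3:**
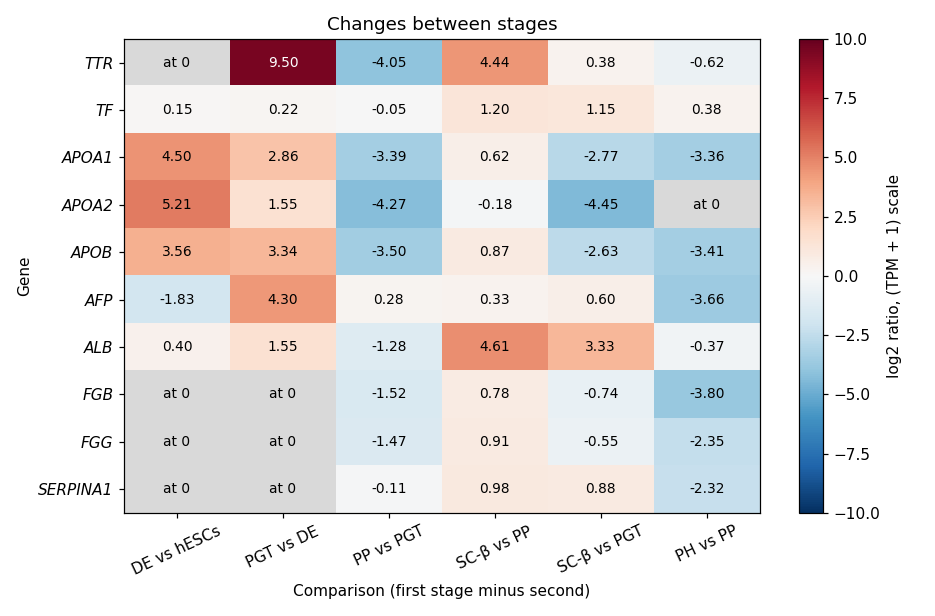
Log2 ratio of (TPM + 1) between stages, as colour and printed value, for each gene (rows) in 6 comparisons (columns, first stage minus second); grey cells have a stage listed at 0. Red is deepest for TTR in PGT against DE (9.50), and blue for APOA2 in SC-β organoids against PGT (-4.45). In PP against PGT, the apolipoproteins and TTR are a deeper blue than FGB, FGG and ALB. Blue cells also mark FGB, AFP, APOB, APOA1, FGG and SERPINA1 in PH against PP.

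Against hESCs, 9 of the genes were at least 2-fold higher in PGT, 8 in PP, 10 in SC-β organoids and 2 in PH, with none lower. Of all names, 10.1% were higher and 4.34% lower in PGT, 7.98% and 4.06% at PP, 22.2% and 3.7% for the organoids, and 12.1% and 8.35% for PH. With names at 1 TPM or more in either stage, 23.4% were higher in PGT, 18.9% in PP, 42.4% in SC-β organoids and 27.3% in PH. These comparisons share the hESC column. After median-ratio rescaling, the share of names past 2-fold that were higher went from 70.0% to 52.7% at PGT. It went from 66.3% to 52.7% at PP and from 85.7% to 68.8% for the organoids. For PH it was 59.1% as deposited and 58.8% after this rescaling. The PH share was 71.4% when the totals were recomputed without the 100 most abundant names. The count in PH depends on the processing, since with a pseudocount of 0.1 TPM 6 genes were higher and 2 lower.

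Neighbours of these genes on the chromosome were compared with them. In the albumin cluster, GC, the vitamin D-binding protein gene, was at 3.69 TPM in DE, then 0.394 at PGT, 10.2 at PP and 26.8 for the organoids, and AFM, the afamin gene, did not exceed 2.31 TPM. GC was thus lower in PGT, where AFP was at 22.2 TPM. Around the fibrinogen genes, PLRG1, a splicing factor gene, stayed between 45.6 and 93.8 TPM at every stage, and LRAT, which makes retinyl esters, between 0.466 and 15.0 TPM, with its highest level in DE. In the APOA1 cluster, APOC3, which lies 2678 bases from APOA1 on the other strand, was listed at 0 in hESCs, DE and PH and was at 4.73 TPM with PGT, 1.76 with PP and 12.3 with SC-β organoids. APOA4 had its highest levels in PGT (3.04 TPM) and SC-β organoids (12.7 TPM), and APOA5 did not exceed 0.362 TPM. APOA1 therefore was 53.2 times APOC3 in PGT and 2.93 times APOC3 in SC-β organoids. The flanking genes BUD13, ZPR1 and SIK3 were at 13.1 to 38.9 TPM throughout. In the SERPINA cluster, SERPINA1 stood apart from its neighbours. SERPINA5 reached 5.71 TPM, SERPINA3 2.48, SERPINA11 2.14, SERPINA4 1.66 and SERPINA10 1.16, while SERPINA6, SERPINA12 and SERPINA2, a close copy of SERPINA1, did not reach 1 TPM.

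**Figure D4:**
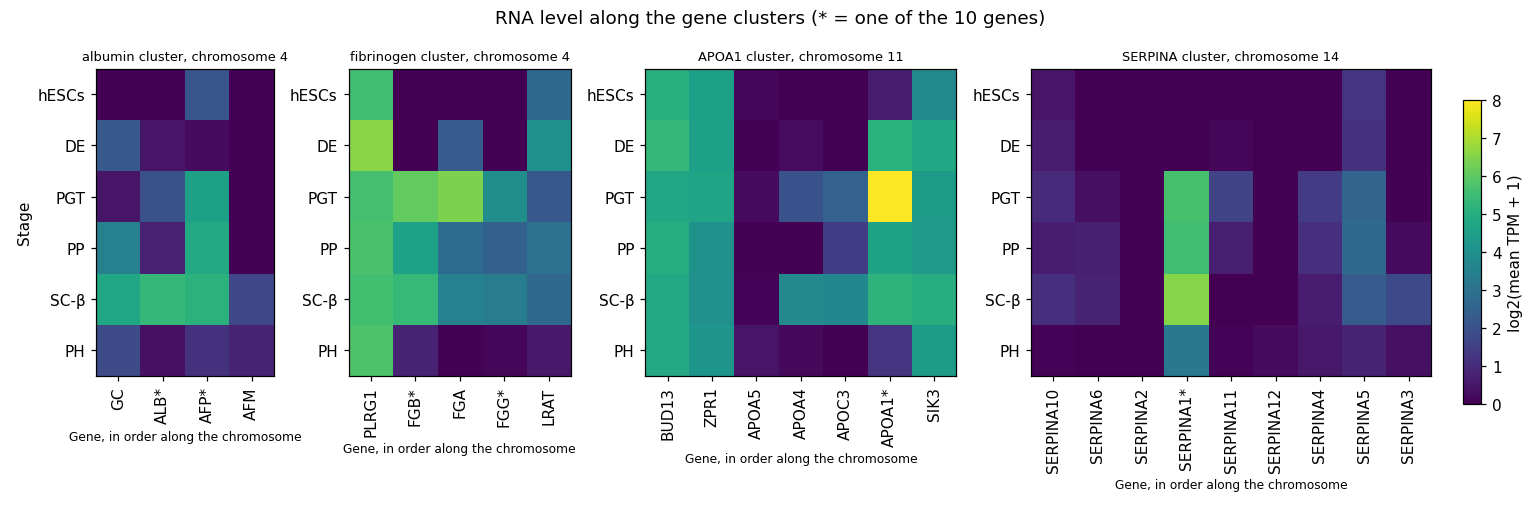
Level as log2(mean TPM + 1) (colour) of the genes of 4 clusters in their order along the chromosome (horizontal axis) at each stage (vertical axis); asterisks mark the genes described here. FGB and FGG are bright with FGA in PGT while PLRG1 is bright at every stage (45.6 to 93.8 TPM), and SERPINA1 is the bright gene of its cluster.

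Other genes of the liver were counted in lists chosen from general knowledge. Beside these counts, 2.3% of all names were higher and 4.92% lower in PGT than in DE. Between PP and PGT, 2.74% of all names were higher in PP and 3.25% lower. Of 17 coagulation and fibrinolysis genes outside the 10, 8 were at least 2-fold higher and none lower in PGT than in DE, and 8 were lower and none higher in PP than in PGT. FGA (84.8 TPM), F10 (41.9), F2, the prothrombin gene (40.9), SERPINF2, the α2-antiplasmin gene (22.6), PROS1 (19.8) and F7 (12.8) were highest in PGT. Of 25 carrier and acute phase genes, 9 were higher and 3 lower in PGT than in DE, and 3 were higher and 9 lower in PP than in PGT. VTN, the vitronectin gene (133 TPM), C5 (114), HPX, the hemopexin gene (70.4), and ORM1 (69.7) were highest in PGT. AMBP was highest in PP (119.5 TPM), and MASP1 was highest in PH (55.8 TPM). ORM1 and ORM2 are near-identical copies, and reads may be split between them. RBP4, whose protein travels with transthyretin, was at 22.0 TPM with PGT, 0.186 with PP and 10.6 with SC-β organoids, and it was listed at 0 in PH.

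Of 10 further apolipoprotein and lipoprotein assembly genes, 4 were higher and 1 lower in PGT than in DE, and 6 were lower and none higher in PP than in PGT. MTTP, which loads lipid onto apolipoprotein B, went from 0.350 TPM in DE to 53.4 in PGT, with 12.1 at PP and 14 at the organoid stage. APOE and APOC1 were unlike APOA1, being already at 589 and 86.4 TPM in hESCs and highest in DE, at 1488 and 376 TPM. APOM was highest in PGT (33.9 TPM). Of 22 intracellular hepatocyte enzyme and receptor genes, 4 were higher and none lower in PGT than in DE. In SC-β organoids against PP, 8 of them were higher and none lower, beside 10.6% and 0.939% of all names. Among names at 1 TPM or more in either of those 2 stages, 20.7% were higher and 1.84% lower. FABP1, the liver fatty acid-binding protein gene, was at 8.18 TPM in PGT and 35.3 in SC-β organoids, and the highest level of TDO2, 11.6 TPM, was also in SC-β organoids. CPS1, FAH and ASGR2 also reached 10 TPM at some stage. CPS1 peaked in SC-β organoids (29.8 TPM), but hESCs already had 20.3 TPM of it. FAH had its highest level, 14.8 TPM, in hESCs and kept to 10.3 TPM or more at every other stage except PH (3.05 TPM). The peak of ASGR2, 12.8 TPM, fell in PGT. TAT, G6PC, CYP2E1 and BAAT, enzymes of the mature hepatocyte, did not reach 1 TPM at any stage.

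**Figure D5:**
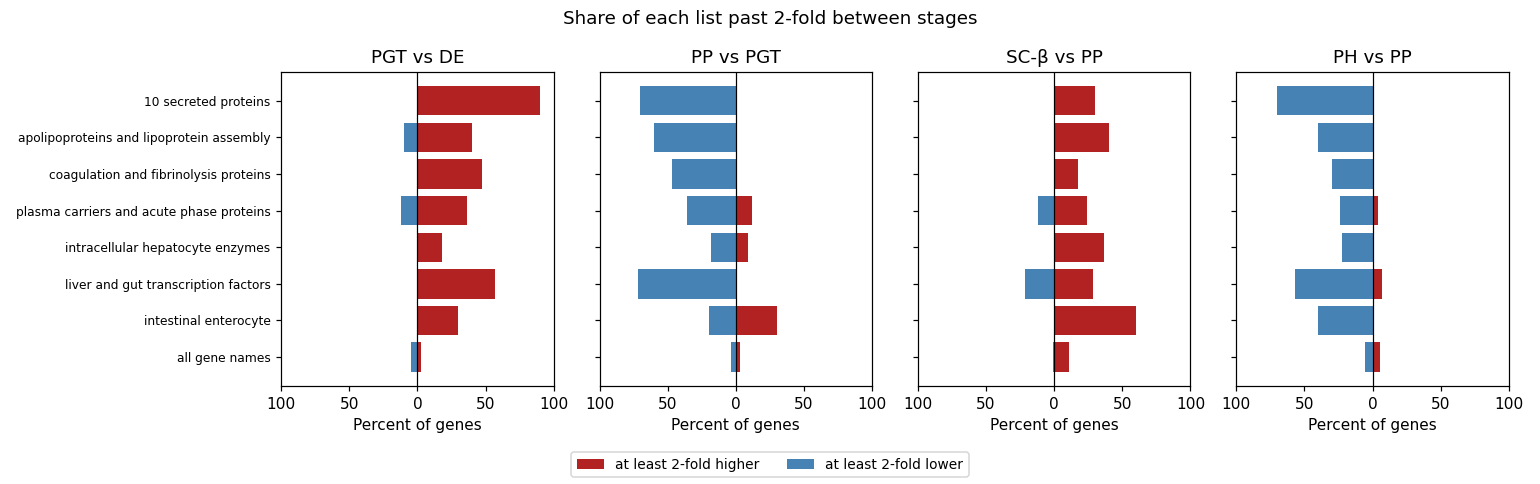
Percent of the genes of each list (vertical axis) that were at least 2-fold higher (red, to the right) or lower (blue, to the left) in 4 comparisons of stages. The 10 secreted proteins are 9 of 10 higher in PGT against DE and 7 of 10 lower in PP against PGT, beside 2.3% and 3.25% of all gene names.

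Among 14 transcription factors of liver and gut, 8 were higher and none lower in PGT than in DE, and 10 were lower and none higher in PP than in PGT. HHEX (137 TPM), TBX3 (126), FOXA1 (86.0), FOXA2 (48.7) and HNF4A (33.7) were highest in PGT, and FOXA3 in DE (37.0). CEBPA was at 9.81 TPM in PGT and 6.36 in SC-β organoids. In DE, where the apolipoproteins were present and TTR was at 0.306 TPM, HNF4A was at 19.7 TPM. Between PH and PP, 1 of the 14 was higher in PH and 8 were lower, against 5.14% and 5.73% of all names. HNF4A and FOXA3 were below 1 TPM in PH, whereas PROX1 had its highest level there (11.1 TPM), TBX3 was at 12.6 TPM beside 12.3 TPM for PP, and ONECUT1 was at 4.80 TPM.

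Markers of other cells that use these genes were read beside them. In SC-β organoids against PP, 10.6% of all names were at least 2-fold higher and 0.939% lower. At 1 TPM or more in either stage, these shares were 20.7% and 1.84%. Of 11 islet endocrine genes, 9 were higher and 1 lower in SC-β organoids than in PP, with GCG at 2793 TPM, CHGA at 805, INS at 298 and SST at 203. TTR in SC-β organoids was 0.440 times GCG. In PGT, where TTR was at 943 TPM, GCG, the gene for glucagon, and INS were listed at 0 and CHGA was at 0.438 TPM. Of 9 choroid plexus genes, 4 were higher and none lower in SC-β organoids than in PP. They were LMX1A, SLC4A5, KCNJ13 and AQP1, at 32.2, 5.69, 5.25 and 3.04 TPM in SC-β organoids. CLIC6 and KL stayed below 2-fold, at 3.73 and 1.13 TPM in SC-β organoids. OTX2 and FOLR1 of the same list were at 0.964 and 3.00 TPM for PP and at 0.0805 and 1.27 TPM for the organoids. The summed level of these 9 genes was 24.0 TPM in hESCs and 253 TPM in DE, then 57.7 TPM at PGT, 12 TPM at PP, 55.5 TPM for the organoids and 8.79 TPM for PH. OTX2 alone was at 229 TPM in DE, where TTR was at 0.306 TPM, and LMX1A gave most of the organoid sum. Of 10 enterocyte genes, 6 were higher and none lower in SC-β organoids than in PP, led by RBP2 (19.5 TPM), APOA4 (12.7) and CDH17 (12.6). VIL1 was not among them, at 28.8 TPM for PP and 23.7 TPM for the organoids, and it was highest in PGT, at 125 TPM. The part of each cell type in the TTR and ALB levels of SC-β organoids was not tested. Of 7 exocrine genes, 1 was higher and 1 lower in SC-β organoids than in PP, with PRSS1 at 19.2 TPM beside SERPINA1 at 92.1 TPM. Of 5 leukocyte genes, 2 were higher and none lower. LYZ was at 2.57 TPM for PP and 65.9 TPM for the organoids, CSF1R at 0.315 and 2.01 TPM, and CD68, which stayed below 2-fold, at 0.856 and 1.90 TPM, while PTPRC and CD14 did not exceed 0.282 and 0.141 TPM at any stage. Of 7 oligodendrocyte genes, none was higher and 2 were lower in SC-β organoids than in PP, and MOG and MAG did not exceed 0.673 and 0.206 TPM.

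The genes outside the group whose pattern was most like it were found by Pearson's r with the mean standardised profile of the 10 genes, among 3633 names at 50 TPM or more in some stage. They included ALDH1A1 (r = 0.989), SERP1 (0.988), PTP4A1 (0.977), ALCAM (0.971), SESN3 (0.970), MTG1 (0.949), FAM107B (0.949), FLRT2 (0.946) and OSBPL9 (0.945), each over 6 stage means. ALDH1A1, a retinaldehyde dehydrogenase, was at 0.574 TPM in hESCs, at 2.23 for DE and 136 for PGT, then at 30.3 for PP, 145 in SC-β organoids and 5.25 in PH. SERP1 had nearly the same r with a range of only 43.6 to 55.0 TPM, since r takes no account of the size of a change. Among the 10 genes, FGG (0.976) and FGB (0.965) lay nearest to the mean profile and APOA2 (0.563) and TF (0.602) farthest from it. These coefficients describe 6 means of libraries that share a fixed total.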

How the data were processed

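RNA-seq of H9 hESCs and derived stages was analysed (2 samples per stage, 12 of 148 samples); the other assays are not analysed here. Per the methods and labels, the authors aligned reads to hg38 with HISAT2 (version 2.2.0), computed TPM with StringTie (version 2.1.6) and deposited the mean TPM of each stage. The annotation is not given in the sources used here. The authors' methods name ribosomal RNA removal, and the labels also name a stranded mRNA kit. TPM keeps no depth, so counting error is unknown, and without replicate values no test was run. The paper calls the replicates biological.

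The table has 50451 entries under 49085 names, and entries sharing a name were summed (231 names, none of the 10 genes). Log2 ratios were taken as log2 of (TPM + 1) between stages, and 2-fold was the limit. No name at 50 TPM or more in all stages but 1 was listed at 0 in the remaining one. Members and lists were chosen with earlier results of these data known. Genes named were the 10 members, list genes at 10 TPM or more (up to 6 a list), cluster neighbours, and the 10 most similar names at 50 TPM or more; other list genes were named after their values were seen. Some genes that these rules take are not reported here, though the counts of their lists include them. Positions are from GENCODE version 44 on GRCh38, which is hg38, and promoters from RefSeq (GRCh38.p14). Alternatives were a pseudocount of 0.1 TPM, median-ratio rescaling, totals without the 100 most abundant names, a 4-fold limit, a 1 TPM filter and the highest entry of a repeated name. The 2-fold call was run on simulated 4-fold changes of names at 10 TPM or more, which checks the arithmetic and not values near 0. Python 3.11.15 was used with numpy 2.4.6, pandas 2.3.3 and matplotlib 3.10.9.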

Additional observations from a re-analysis of the deposited data

How the results depend on the processing

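No paired analysis was possible because the deposited columns average the replicates, and for the same reason no replicate could be left out. Of the log2 ratios of single genes recomputed under the alternatives, 338 kept their side of 2-fold and 14 passed it. Of those 338, 2 changed sign within 2-fold when totals left out the 100 most abundant names, APOB in PH against hESCs (from -0.02 to 0.09) and SERPINA1 in PP against PGT (from -0.11 to 0.03). Of the recomputed counts, 127 stayed within 1.5 times and 9 did not. With a pseudocount of 0.1 TPM, 5 genes in place of 3 were higher in DE than in hESCs, and 6 in place of 2 higher and 2 in place of 0 lower in PH than in hESCs. Totals without the 100 most abundant names gave 5 higher and 1 lower in PH than in hESCs, and median-ratio rescaling gave 1 lower, APOA2, which is listed at 0 in PH. A 4-fold limit left 0 lower in DE than in hESCs, 4 lower in PP than in PGT and 1 higher in SC-β organoids than in PGT. The median-ratio factors correspond to a log2 shift of -0.48 (DE), -0.34 (PGT), -0.25 (PP) and -0.52 (SC-β organoids) against hESCs and of 0.22 for PH against PP, before the pseudocount, which makes the shift of low genes smaller. No ratio of a gene above 0 at both stages changed its side of 2-fold with it. Values below 1 TPM have no known precision.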

Other observations

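Genes of extraembryonic and visceral endoderm were read beside the secreted proteins, since the yolk sac makes the same proteins. Of 15 such genes, 10 were at least 2-fold higher and none lower in DE than in hESCs, 6 were higher and 3 lower in PGT than in DE, and 11 were lower and none higher in PP than in PGT. Of all names, 12.9% were higher in DE than in hESCs, and 28.2% of those at 1 TPM or more in either stage. From DE to PGT, 2.3% of all names were higher and 4.92% lower, and from PGT to PP 3.25% were lower. LAMB1 (516 TPM), DAB2 (24.6 TPM), LRP2 (29.8 TPM) and CUBN (11.4 TPM), the last a pair of endocytic receptors for filtered plasma proteins, were at these levels in PGT. DAB2 was higher in SC-β organoids, at 87.4 TPM. SOX17 was highest in DE (96.1 TPM), and SOX7 did not exceed 2.89 TPM. Most of these genes are also used by definitive endoderm or by basement membranes.

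Of the globin and erythroid genes of the yolk sac that were read, 7 in number, none exceeded 1.76 TPM, the level of HBE1 in PGT.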
